A study of Mus musculus with 7 samples.

Results

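The angiopoietin-Tie system and 3 genes of lymphatic vessels were measured in colon tumors of mice that carried *Dnmt3a*+/Δ or *Dnmt3a*+/+ bone marrow (BM). The 7 genes were the ligands *Angpt1* and *Angpt2*, the receptors *Tek* (Tie2) and *Tie1*, and *Lyve1*, *Prox1* and *Pdpn*, chosen by name among the 43346 genes of the count table. Each of the 7 symbols matched 1 gene, and all 7 had enough counts to be among the 15810 genes tested. The clearest difference was in *Prox1*, which stood about 4-fold higher on average in tumors with *Dnmt3a*+/Δ BM (115 ± 50.0 against 28.4 ± 3.93 CPM, counts scaled to a common library total; SD, n = 4 and n = 3) and did not overlap between the groups. *Tek* did not overlap either, but 1 tumor held most of its counts. *Tie1* and *Angpt2* were higher on average and overlapped, and *Angpt1*, *Lyve1* and *Pdpn* differed by less than the spread between tumors.

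Angiopoietins are secreted ligands of Tek, a receptor tyrosine kinase of endothelial cells. Angpt1, made largely by perivascular and stromal cells, activates Tek and keeps vessels quiescent, whereas Angpt2, released by endothelial cells of remodeling vessels, can block or activate the same receptor depending on context. Tie1 is a related receptor that binds no angiopoietin strongly by itself and modulates Tek. The system also shapes lymphatic vessels, whose endothelium depends on the transcription factor Prox1 and carries the hyaluronan receptor Lyve1 and the glycoprotein podoplanin (Pdpn) at its surface.

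RNA came from whole colon tumors, 1 per mouse, of 3 mice with *Dnmt3a*+/+ BM and 4 with *Dnmt3a*+/Δ BM, a genotype the labels write as Dnmt3a(+/-). Donors of both genotypes carried Mx1-Cre, a recombinase gene driven by an interferon-responsive promoter, and had received poly(I:C) to switch it on. The recipients were lethally irradiated wild-type C57BL6/J CD45.1 mice, aged 8 wk by the labels and 6 wk by the methods, so the deletion was given to the graft only. All recipients were given azoxymethane, a carcinogen, in 1 dose of 10 mg/kg and then 3 cycles of 3% dextran sulfate sodium in the drinking water, each of 1 wk with 2 wk between cycles, which inflame the colon. The tumors came from transplantation experiments that the labels name BMT18 (*Dnmt3a*+/+ replicates 1 and 2, *Dnmt3a*+/Δ replicates 1 and 2) and BMT8 (*Dnmt3a*+/+ replicate 3, *Dnmt3a*+/Δ replicates 3 and 4). The comparison asks how hematopoietic loss of 1 *Dnmt3a* allele altered expression in the tumor.

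Total counts were 38472738 to 64314999 per tumor. *Dnmt3a* itself had 20.2 to 24.3 CPM with *Dnmt3a*+/+ BM and 22.0 to 43.0 CPM with *Dnmt3a*+/Δ BM, so whole-tumor RNA did not show the deletion. *Epcam*, an epithelial marker, had 1543 to 3239 CPM in the 7 tumors. *Dnmt3a*+/Δ replicate 2 stood apart: of the 15810 genes it was the highest tumor in 24.7% and the lowest in 25.3%, and it was the highest for 5 of the 7 genes described here and the lowest for 1, *Lyve1*. It was also the only tumor with almost no keratin 5, a squamous marker (*Krt5* 0.0815 CPM, against 927 to 5963 CPM in the other 6). Values that rest on this tumor are therefore given with and without it.

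All CPM values are scaled by TMM library sizes, which correct the total of each tumor for its composition, and a log2 fold change is *Dnmt3a*+/Δ BM over *Dnmt3a*+/+ BM. A call needed a log2 fold change beyond 1 in either direction and a Benjamini-Hochberg adjusted p under 0.05. edgeR's quasi-likelihood test called 0 of the 7 genes, against 0.0% of all genes tested. At an unadjusted p under 0.05 it marked 3 of 7, *Prox1*, *Tek* and *Tie1*, all higher with *Dnmt3a*+/Δ BM, against 11.0% of all genes in either direction, 5.83% higher and 5.2% lower. DESeq2, with the same thresholds, called *Prox1* alone among the 6 genes to which it gave an adjusted p, against 1.87% of its genes in either direction and 1.51% in the higher direction. For 2 of 7 genes, *Prox1* and *Tek*, all tumors with *Dnmt3a*+/Δ BM lay above all those with *Dnmt3a*+/+ BM, against 6.12% of all genes, and for 0 of 7 they lay below, against 6.32%. The median log2 fold change of the 7 was 0.94, and 0.79 without *Dnmt3a*+/Δ replicate 2, where that of all genes tested was 0.0025. Scaling by library size alone moved the median of all genes to 0.21 and that of the 7 to 1.19.

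**Figure D1:**
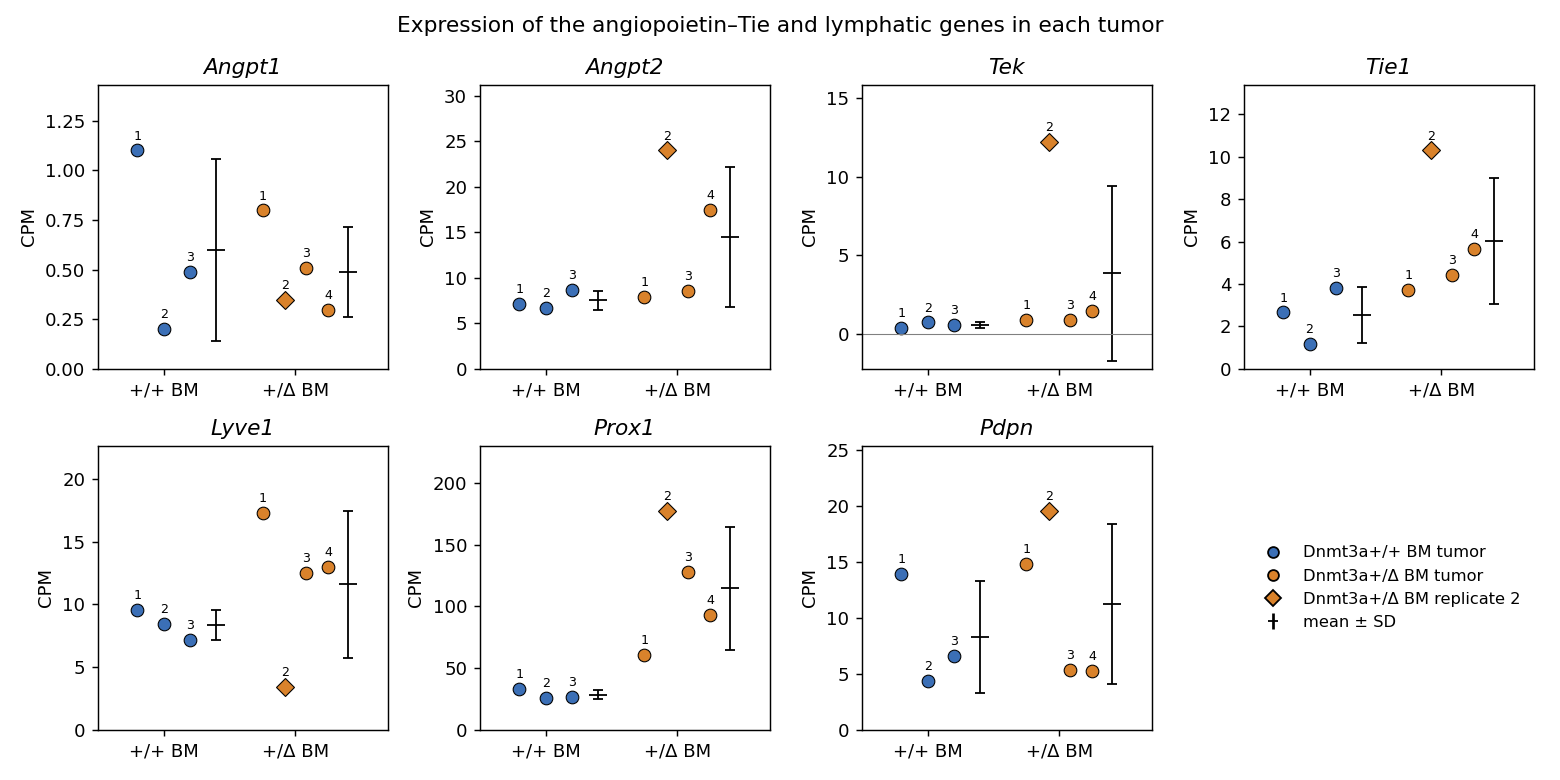
CPM of the 7 genes in each tumor, 1 panel per gene on a linear axis with its own scale; each point is 1 tumor, the horizontal mark is the group mean and the error bar its SD (n = 3 and n = 4), and the tumors are numbered. *Prox1* runs from 25.7 to 32.9 CPM with *Dnmt3a*+/+ BM and from 60.3 to 177 CPM with *Dnmt3a*+/Δ BM, while *Tek* separates mainly through replicate 2 at 12.2 CPM.

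**Figure D2:**
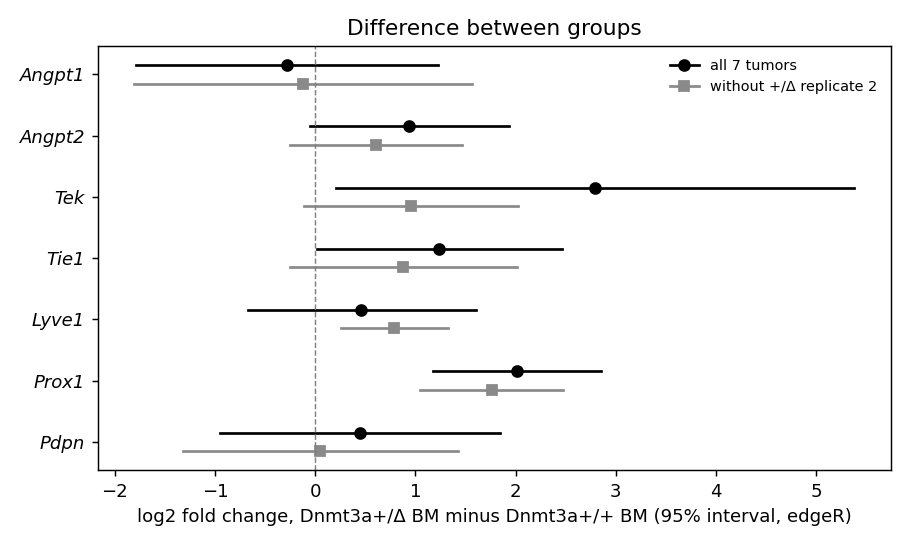
Log2 fold change of each of the 7 genes from edgeR with its 95% interval, *Dnmt3a*+/Δ BM over *Dnmt3a*+/+ BM, with all 7 tumors and without *Dnmt3a*+/Δ replicate 2. *Prox1* stays near 2 in both fits (2.01 and 1.76), and *Tek* goes from 2.79 to 0.96.

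Between genes, levels were compared per exon length, as TPM, computed from the counts by dividing by exon length and scaling each tumor to the same sum. Over the 7 tumors the mean TPM was 26.8 for *Prox1*, 15.3 for *Pdpn*, 9.1 for *Lyve1*, 8.66 for *Angpt2*, 2.6 for *Tie1*, 1.66 for *Tek* and 0.267 for *Angpt1*. Neighbors in this order overlapped in their range over tumors in each of the 6 pairs. The order *Angpt2* above *Tie1* held in 7 of 7 tumors, that of *Tie1* above *Tek* and of *Tek* above *Angpt1* in 6 of 7 each, and the 3 upper steps in 4, 4 and 5 of 7. The transcripts of the ligand Angpt2 thus exceeded those of both receptors on average, and Angpt1 transcripts were the scarcest.

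*Angpt1*, the activating ligand of Tek, lies on the minus strand at chr15:42424723-42676977 of GRCm38. In order of replicate, its level was 1.10, 0.203 and 0.489 CPM with *Dnmt3a*+/+ BM and 0.798, 0.346, 0.508 and 0.297 CPM with *Dnmt3a*+/Δ BM. Each value rests on 11 to 41 counts, and the groups overlapped throughout. In edgeR the fold change on the log2 scale was -0.28 (standard error 0.65, 95% interval -1.79 to 1.23, adjusted p = 0.915), which turned to 0.51 without *Dnmt3a*+/+ replicate 1. Within BMT18 the difference in mean log2 CPM was 0.11, and edgeR's fit of these tumors alone gave -0.17 (standard error 1.02). Within BMT8 the difference in mean log2 CPM was -0.30. An antisense gene, Gm17473, covers 14.2% of its exon bases and was at 0 in all 7 tumors.

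*Angpt2*, at chr8:18690263-18741562 on the minus strand, encodes the ligand of remodeling vessels. With *Dnmt3a*+/+ BM it was at 7.17, 6.74 and 8.72 CPM. With *Dnmt3a*+/Δ BM it was at 7.93, 24.0, 8.5 and 17.5 CPM, so replicates 2 and 4 were high and replicates 1 and 3 lay among the *Dnmt3a*+/+ tumors. The means were 7.55 ± 1.04 CPM (SD, n = 3) and 14.5 ± 7.72 CPM (SD, n = 4). The groups differed by a log2 fold change that edgeR put at 0.94 (standard error 0.43, 95% interval -0.05 to 1.93, adjusted p = 0.471), and leaving out *Dnmt3a*+/Δ replicate 2 brought it to 0.61. Within BMT18 the difference in mean log2 CPM was 0.99, and within BMT8, which holds 1 *Dnmt3a*+/+ tumor, it was 0.48.

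The balance of the ligands was taken as log2 CPM of *Angpt2* minus that of *Angpt1*. It was 2.65, 4.77 and 4.03 with *Dnmt3a*+/+ BM and 3.24, 5.94, 3.95 and 5.68 with *Dnmt3a*+/Δ BM. *Angpt2* was thus the more abundant ligand in every tumor, the lowest and the highest value belonged to different groups, and the rest interleaved. The means of 3.82 ± 1.08 (SD, n = 3) and 4.70 ± 1.31 (SD, n = 4) differed by less than either SD. *Angpt4*, the remaining angiopoietin of the mouse, was at 0.0269 to 0.324 CPM in 6 tumors and at 3.32 CPM in *Dnmt3a*+/Δ replicate 2, too low to be tested.

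The receptor genes both lie on chromosome 4. Their RefSeq promoters on GRCm38.p6 are shown, the 250 bases before the transcription start, because *Tek* and *Tie1* were highest in the same tumor. Capitals mark GGAAG, the core letters of ETS factor sites, and ACAAT, those of SOX factor sites, searched on both strands so that a match on the other strand reads as CTTCC or ATTGT. The *Tek* window is chr4:94739039-94739288, plus strand, and that of *Tie1* is chr4:118489850-118490099, minus strand. The RefSeq start of *Tie1* lies inside the annotated span of the gene, which reaches chr4:118490061. Part of the *Tie1* window, with some of its matches, is therefore within that span.
Tek: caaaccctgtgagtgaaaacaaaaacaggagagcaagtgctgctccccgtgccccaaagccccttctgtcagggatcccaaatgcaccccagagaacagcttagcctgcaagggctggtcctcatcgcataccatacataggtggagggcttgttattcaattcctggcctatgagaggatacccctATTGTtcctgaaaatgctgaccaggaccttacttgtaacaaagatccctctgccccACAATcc
Tie1: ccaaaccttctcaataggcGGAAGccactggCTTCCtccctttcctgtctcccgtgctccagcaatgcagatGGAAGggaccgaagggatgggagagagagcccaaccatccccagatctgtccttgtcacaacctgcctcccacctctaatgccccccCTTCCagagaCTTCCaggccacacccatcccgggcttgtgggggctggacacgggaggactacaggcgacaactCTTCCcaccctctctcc
The *Tie1* window holds 6 matches to GGAAG and none to ACAAT, and the *Tek* window holds 2 matches to ACAAT, 63 and 7 bases before the start, and none to GGAAG. The *Tek* window does hold the shorter GGAA, read there as TTCC, so it does not lack the ETS core letters. Among 32851 RefSeq windows of that length, 64.1% hold GGAAG and 27.7% hold ACAAT. The matches are letters only and say nothing of binding.

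*Tek*, the angiopoietin receptor, lies on the plus strand at chr4:94739289-94874976. Its level was 0.376, 0.718 and 0.551 CPM with *Dnmt3a*+/+ BM and 0.873, 12.2, 0.853 and 1.43 CPM with *Dnmt3a*+/Δ BM. The groups did not overlap, but the margin was narrow outside replicate 2: 14 to 46 counts per tumor with *Dnmt3a*+/+ BM stood against 35, 42 and 53 counts in *Dnmt3a*+/Δ replicates 1, 3 and 4. Replicate 2, with 598 counts, held 79.4% of the summed *Tek* CPM of its group. In edgeR the log2 fold change was 2.79 (standard error 1.11, 95% interval 0.21 to 5.38, adjusted p = 0.433), and 0.96 (standard error 0.45) without that tumor. The means were 0.548 ± 0.171 CPM (SD, n = 3) and 3.84 ± 5.57 CPM (SD, n = 4), and the latter was 1.05 ± 0.329 CPM (SD, n = 3) without replicate 2. DESeq2 gave *Tek* no p, since it treated the count of 1 tumor as an outlier. The exact permutation test over the 35 splits of the tumors gave a two-sided p of 0.114 on log2 CPM, where the smallest it allows is 0.0286.

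*Tie1*, the partner receptor, lies on the minus strand at chr4:118471191-118490061. It was at 2.66, 1.19 and 3.82 CPM with *Dnmt3a*+/+ BM and at 3.74, 10.3, 4.43 and 5.65 CPM with *Dnmt3a*+/Δ BM. The groups touched at 1 point only, where *Dnmt3a*+/+ replicate 3 stood just above *Dnmt3a*+/Δ replicate 1. The means were 2.56 ± 1.32 CPM (SD, n = 3) and 6.03 ± 2.95 CPM (SD, n = 4). The fitted log2 fold change was 1.24 (standard error 0.52, 95% interval 0.02 to 2.46, adjusted p = 0.447 in edgeR). Among the edgeR fits with 1 tumor left out, it was lowest, at 0.88, without *Dnmt3a*+/Δ replicate 2 and highest, at 1.65, without *Dnmt3a*+/+ replicate 3, and in BMT18 alone it was 1.89. Within BMT18 the difference in mean log2 CPM was 1.78 and within BMT8 it was 0.38. For *Tek* the same values were 2.56 and 0.95. The difference between the experiments had an adjusted p of 1 for both genes in edgeR's interaction test.

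Markers of endothelium as a whole moved in the same direction as the receptors. All 12 genes of the pan-endothelial list were higher with *Dnmt3a*+/Δ BM, 6 of them at an unadjusted p under 0.05 in edgeR, against 5.83% of all genes. Their median log2 fold change of 1.65 went to 1.2 when *Dnmt3a*+/Δ replicate 2 was left out. The list summed to 25.9 to 58.2 CPM with *Dnmt3a*+/+ BM and to 49.4 to 222 CPM with *Dnmt3a*+/Δ BM, and replicate 2 was the highest tumor for 8 of the 12. Its leading genes by p were *Pecam1* (CD31, log2 fold change 1.56), *Kdr* (a Vegf receptor, 1.90) and *Cdh5* (the junction protein VE-cadherin, 2.59). Their adjusted p was 0.377, 0.383 and 0.406 in edgeR and 0.0357, 0.0324 and 0.0324 in DESeq2. In whole tumors, more endothelial cells cannot be told apart from more RNA per endothelial cell.

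The levels were also set against the mean log2 CPM of that list, tumor by tumor. The group difference in this relative level was 0.34 for *Tek*, -0.16 for *Tie1* and 0.49 for *Prox1*, and all 3 overlapped between the groups. Relative to the mean of *Pecam1* and *Cdh5* the differences were 0.01, -0.50 and 0.15, again with overlap, so *Prox1* did not separate the groups on either relative scale. For *Angpt2* it was -0.64: relative levels were 1.85, 1.89 and 1.12 with *Dnmt3a*+/+ BM and 1.26, 0.91, 0.81 and 0.96 with *Dnmt3a*+/Δ BM, where 1 *Dnmt3a*+/Δ tumor reached into the other group. Relative to *Pecam1* and *Cdh5*, *Angpt2* was lower in all 4 *Dnmt3a*+/Δ tumors (-0.70 to 0.23) than in the 3 *Dnmt3a*+/+ tumors (0.46 to 1.14). The mean of *Pecam1* and *Cdh5* was itself higher in all *Dnmt3a*+/Δ tumors, by 1.76 log2 units on average. A gene that rose by less than this falls on average on that scale. The share of all genes that separate on it was not computed. The relative levels are differences of log2 CPM, given as descriptions. *Prox1* itself lay 2.72 to 4.71 log2 units above the mean of the pan-endothelial list in each tumor. The part of the endothelium in the *Prox1* values was not tested.

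Of 10 other genes that act with the receptors, 9 were tested and 8 were higher with *Dnmt3a*+/Δ BM. Their median log2 fold change was 0.28. Leaving out *Dnmt3a*+/+ replicate 2 gave 0.08, leaving out *Dnmt3a*+/+ replicate 3 gave 0.80, and leaving out *Dnmt3a*+/Δ replicate 2 gave 0.13. At an unadjusted p under 0.05 in edgeR, 3 of the 9 were higher, against 5.83% of all genes. *Svep1*, a matrix protein that binds Tie1 and is needed for lymphatic remodeling, was at 2.93, 2.28 and 2.23 CPM with *Dnmt3a*+/+ BM and at 5.02, 5.36, 9.71 and 4.84 CPM with *Dnmt3a*+/Δ BM. The fold change on the log2 scale was 1.33 (standard error 0.36; adjusted p 0.361 in edgeR, 0.0156 in DESeq2). Leaving out *Dnmt3a*+/Δ replicate 2 gave 1.43, so *Svep1* did not rest on that tumor.

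*Ptprb*, the vascular phosphatase that dampens Tek, was at 1.24, 1.69 and 1.38 CPM with *Dnmt3a*+/+ BM and at 1.47, 10.4, 2.99 and 3.92 CPM with *Dnmt3a*+/Δ BM. *Ptprb* had a log2 fold change of 1.71, which was 0.99 when *Dnmt3a*+/Δ replicate 2 was left out. *Grb14*, an adaptor of receptor tyrosine kinases, had one of 2.49, and 1.35 without that tumor, in which it reached 15.4 CPM. The remaining 6 tested genes, among them the transcription factor *Foxo1*, which Angpt1 signaling restrains (log2 fold change -0.07) and *Itgb1*, an integrin subunit (0.05), had an unadjusted p over 0.05.

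*Prox1*, the master transcription factor of lymphatic endothelium, is also made by enteroendocrine cells and by intestinal tumor epithelium with active Wnt signaling. It lies on the minus strand at chr1:190118035-190170714. RefSeq places the outermost of its starts upstream of that, and the 250 bases before it are chr1:190170828-190171077 of GRCm38.p6. They are shown because *Prox1* had the largest difference in units of its error, with matches to GGAAG in capitals.
Prox1: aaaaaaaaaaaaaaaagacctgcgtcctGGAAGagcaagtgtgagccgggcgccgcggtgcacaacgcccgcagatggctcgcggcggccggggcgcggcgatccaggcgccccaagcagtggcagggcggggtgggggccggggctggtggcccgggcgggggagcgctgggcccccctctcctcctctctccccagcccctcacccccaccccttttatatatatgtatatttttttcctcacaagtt
This window holds 1 match to GGAAG, and the window before a start further in, chr1:190169516-190169765, holds 3. Neither holds TCAAAG, the core letters of TCF/LEF sites on either strand, which 13.8% of the 32851 windows hold.

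The CPM of *Prox1* was 32.9, 25.7 and 26.5 with *Dnmt3a*+/+ BM, against 60.3, 177, 128 and 93.3 with *Dnmt3a*+/Δ BM. The *Dnmt3a*+/+ tumors lay close together, and the lowest *Dnmt3a*+/Δ tumor was well above the highest of them. In edgeR the group difference was 2.01 on the log2 scale (standard error 0.36, 95% interval 1.18 to 2.85; unadjusted p 0.000594, adjusted p 0.361). DESeq2 gave 2.03 with an adjusted p of 0.000113. The exact permutation test gave a two-sided p of 0.0286, the smallest that 4 tumors against 3 can give. With each tumor left out in turn the log2 fold change stayed between 1.76, without *Dnmt3a*+/Δ replicate 2, and 2.25, without *Dnmt3a*+/Δ replicate 1, and DESeq2 called the gene in 7 of those 7 fits. Within BMT18 the difference in mean log2 CPM was 1.83 and within BMT8 it was 2.04. The antisense gene Prox1os shares 1.59% of the exon bases of *Prox1* and had at most 1.85 CPM.

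The profile of *Prox1* over the tumors was set beside those of other genes. Likeness was measured as the root mean square distance between log2 CPM values of 2 genes, each centered over the 7 tumors, so 0 is the same profile. The 3 genes closest to *Prox1* were *Spock2* (0.11), *Dach1* (0.12) and *Zbtb8b* (0.15), of which *Spock2* and *Zbtb8b* were again among its 3 closest without *Dnmt3a*+/Δ replicate 2. The median distance of *Prox1* was 0.45 to 6 Wnt target genes, 0.78 to the pan-endothelial list, 1.08 to the lymphatic list and 1.12 to all genes tested. To the fibroblast list it was 0.9, nearer than to the lymphatic list. To the colon epithelium and enteroendocrine lists it was 1.31 and 1.52, farther than to all genes tested. These distances describe 7 tumors in which the groups themselves differ, and no test was made. The Wnt list was chosen with earlier results of these data known, and 4 of its 6 genes, like *Prox1*, did not overlap between the groups. The receptor gene *Tie1* was also near these genes (0.57, against 0.59 to the pan-endothelial list). The cell source of *Prox1* cannot be read from such distances and was not tested.

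Wnt target genes moved in the same direction: 6 of 6 were higher with *Dnmt3a*+/Δ BM, 4 of them at an unadjusted p under 0.05 in edgeR, against 5.83% of all genes. Their median log2 fold change was 1.42 (1.31 without *Dnmt3a*+/Δ replicate 2). They summed to 191 to 244 CPM with *Dnmt3a*+/+ BM and to 302 to 906 CPM with *Dnmt3a*+/Δ BM, and *Lef1*, a Wnt-responsive transcription factor, had the lowest p (log2 fold change 2.33), followed by *Nkd1* (1.92) and *Notum* (1.69), both feedback inhibitors. *Axin2*, another feedback inhibitor, had one of 1.14. Enteroendocrine genes were lower, 5 of 5 tested, none at an unadjusted p under 0.05, with a median of -0.69; *Chga*, which encodes a granule protein, was at 10.2 to 26.4 CPM with *Dnmt3a*+/+ BM and at 9.57 to 17.0 CPM with *Dnmt3a*+/Δ BM. Of 7 colon epithelium genes, 6 were lower, with a median of -0.48, while the intestinal transcription factor *Cdx2* was higher (0.79, unadjusted p = 0.0287 from edgeR). With scaling by library size alone these medians were -0.51 and -0.28. The part of the epithelium in the *Prox1* values was not tested.

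**Figure D3:**
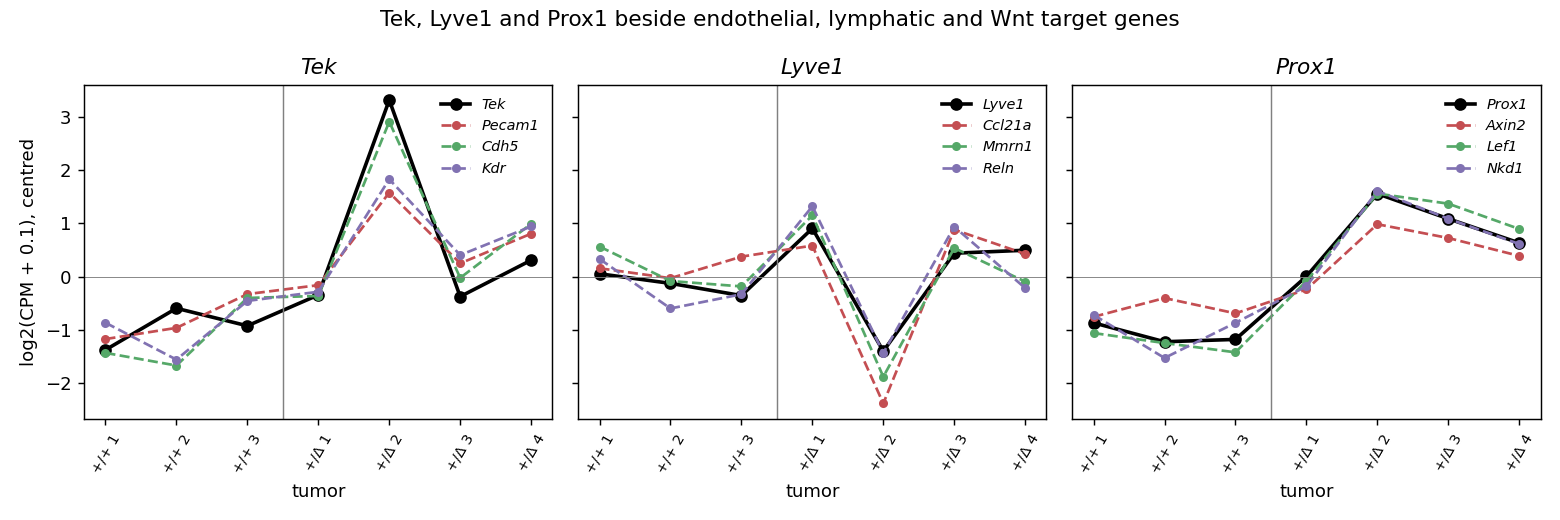
Profiles of *Tek* beside *Pecam1*, *Cdh5* and *Kdr*, of *Lyve1* beside *Ccl21a*, *Mmrn1* and *Reln*, and of *Prox1* beside *Axin2*, *Lef1* and *Nkd1*, as log2(CPM + 0.1) of each tumor centered on the mean of the 7; the companion genes were picked with their values known, and the lines join the values of 1 gene without marking an order of the tumors. *Prox1* and *Lyve1* part in *Dnmt3a*+/Δ replicate 2, where *Prox1* is highest (177 CPM) and *Lyve1* lowest (3.42 CPM).

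*Lyve1*, a hyaluronan receptor of lymphatic capillaries and of some tissue macrophages, lies on the minus strand at chr7:110850607-110863239. Its level was 9.54, 8.41 and 7.16 CPM with *Dnmt3a*+/+ BM and 17.3, 3.42, 12.5 and 13 CPM with *Dnmt3a*+/Δ BM. *Dnmt3a*+/Δ replicates 1, 3 and 4 were above all *Dnmt3a*+/+ tumors, and replicate 2 was the lowest of the 7. With all tumors, the log2 fold change was 0.46 (standard error 0.49, 95% interval -0.67 to 1.60, adjusted p = 0.765 in edgeR). Leaving out replicate 2 gave 0.79 (standard error 0.23, unadjusted p = 0.0104, adjusted p = 0.553 in edgeR), and leaving out *Dnmt3a*+/Δ replicate 1 gave 0.21. The difference in mean log2 CPM was -0.21 within BMT18, which holds replicate 2, and 0.83 within BMT8, while edgeR's fit of BMT18 alone gave 0.21 (standard error 0.81), so the sign within BMT18 depended on the measure. In edgeR's interaction test the experiments differed by 0.63 (standard error 1.13, adjusted p = 1). In the fit without replicate 2, *Lyve1* and *Prox1* were the 2 of 7 genes at an unadjusted p under 0.05, against 7.16% of the genes tested there.

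Within the wider lymphatic list, 16 of 17 genes had enough counts to be tested, and 14 of the 16 were higher with *Dnmt3a*+/Δ BM. Whether lymphatic vessels were the source of these transcripts was not tested. Their median log2 fold change was 0.77, and it depended on single tumors: leaving out *Dnmt3a*+/Δ replicate 2 gave 0.50, *Dnmt3a*+/Δ replicate 1 gave 0.40 and *Dnmt3a*+/+ replicate 1 gave 1.13. At an unadjusted p under 0.05 in edgeR, 4 of the 16 were higher, against 5.83% of all genes. DESeq2 called 2, *Foxc2* and *Gata2*, both higher, against 1.51% of its genes. *Foxc2*, a transcription factor of lymphatic valves, was at 0.752, 0.687 and 0.734 CPM with *Dnmt3a*+/+ BM and at 1.40, 8.29, 4.22 and 4.16 CPM with *Dnmt3a*+/Δ BM. On the log2 scale the fold change of *Foxc2* was 2.64 (standard error 0.60; adjusted p 0.361 in edgeR, 0.00102 in DESeq2), and 2.20 without replicate 2.

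*Gata2*, another valve regulator that blood cells also use, had a log2 fold change of 2.63 (adjusted p 0.401 in edgeR, 0.0357 in DESeq2). *Flt4* (Vegfr3), the receptor of lymphatic growth factors, was at 1.99, 2.00 and 1.53 CPM with *Dnmt3a*+/+ BM and at 7.34, 3.30, 5.77 and 2.43 CPM with *Dnmt3a*+/Δ BM. Replicate 1 was its highest tumor, unlike for *Tek* and *Tie1*.

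*Dnmt3a*+/Δ replicate 2 lay at either end of the range for many lymphatic genes, as it did for genes in general. It was the lowest of the 7 tumors for 6 and the highest for 5 of the 16, where over all genes these shares were 25.3% and 24.7%, and nothing particular to the list is read from this. The 6 were *Vegfc* and *Vegfd*, which encode lymphatic growth factors, *Ccl21a*, a chemokine of lymphatic endothelium, *Reln* and *Mmrn1*, which encode secreted proteins of that endothelium, and *Nr2f2*, a transcription factor of veins and lymphatics. The 5 were *Foxc2*, *Gata2*, *Sox18*, *Itga9* and *Emilin1*. These genes were named after their values were seen. *Ccl21a* was at 23.8, 20.9 and 27.7 CPM with *Dnmt3a*+/+ BM and at 32.0, 4.01, 39.4 and 28.7 CPM with *Dnmt3a*+/Δ BM, and *Mmrn1* at 10.3, 6.54 and 6.09 CPM and at 15.5, 1.81, 10.1 and 6.49 CPM. *Lyve1*, *Ccl21a* and *Mmrn1* were thus all low in the tumor in which *Tek*, *Tie1*, *Angpt2* and *Prox1* were at their highest. The lymphatic genes *Foxc2*, *Gata2*, *Sox18*, *Itga9* and *Emilin1* were at their highest in it too, so the list had no common direction there.

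**Figure D4:**
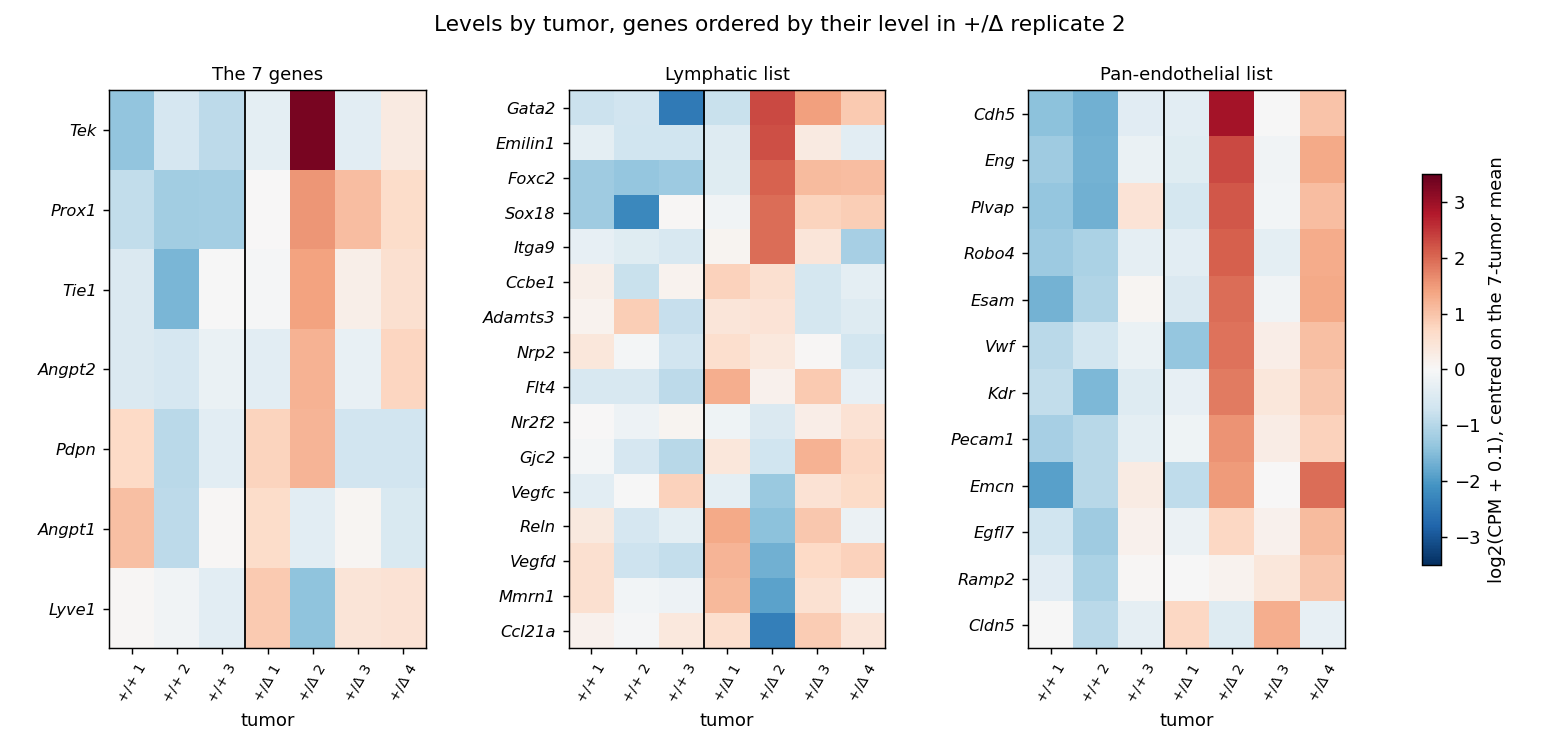
Heat maps of the 7 genes, the 16 tested lymphatic genes and the 12 pan-endothelial genes, as log2(CPM + 0.1) centered on the mean of the 7 tumors, with 1 column per tumor and rows ordered by the level in *Dnmt3a*+/Δ replicate 2; red is above and blue below the mean. That tumor is red for *Tek*, most pan-endothelial genes and the lymphatic genes *Foxc2*, *Gata2*, *Sox18*, *Itga9* and *Emilin1*. It is blue for *Lyve1* and for the lymphatic genes *Ccl21a*, *Mmrn1*, *Reln* and *Vegfd*.

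*Pdpn*, found on lymphatic endothelium and also on fibroblasts, basal squamous cells and some macrophages, lies on the minus strand at chr4:143267431-143299564. It was at 13.9, 4.36 and 6.55 CPM with *Dnmt3a*+/+ BM and at 14.8, 19.5, 5.30 and 5.27 CPM with *Dnmt3a*+/Δ BM. High and low tumors occurred in both groups, and the log2 fold change was 0.45 (standard error 0.60, 95% interval -0.95 to 1.84, adjusted p = 0.831 in edgeR). Leaving out *Dnmt3a*+/Δ replicate 2 gave 0.05, *Dnmt3a*+/+ replicate 2 gave 0.13 and *Dnmt3a*+/+ replicate 1 gave 1.04. The difference in mean log2 CPM was 1.12 within BMT18 and -0.31 within BMT8. The closest profiles were those of *C1s1* (0.11), *Sh2d5* (0.21) and *Angptl4* (0.22).

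Markers of the other cells that carry *Pdpn* were set beside it. The 9 fibroblast genes summed to 165 to 311 CPM with *Dnmt3a*+/+ BM and to 247 to 1052 CPM with *Dnmt3a*+/Δ BM, and replicate 2 was the highest tumor for 8 of the 8 tested, with a median log2 fold change of 0.89 that was 0.25 without it. *Pdgfra*, a fibroblast receptor, had a log2 fold change of 2.10. The 4 squamous genes summed to 20016, 3621 and 4745 CPM with *Dnmt3a*+/+ BM and to 20536, 196, 4085 and 4616 CPM with *Dnmt3a*+/Δ BM, a median log2 fold change of -0.26, and were highest in replicate 1 of each group. *Pdpn* was high in these 2 tumors but highest in *Dnmt3a*+/Δ replicate 2, where the squamous sum was lowest. The 9 macrophage genes summed to 124 to 289 CPM with *Dnmt3a*+/+ BM and to 146 to 388 CPM with *Dnmt3a*+/Δ BM. Most of each sum was 1 gene, *Cbr2* (94.4 to 254 and 118 to 341 CPM), which was highest in *Dnmt3a*+/Δ replicate 1. *Dnmt3a*+/Δ replicate 2 was the highest tumor for 4 of the 7 tested, among them *Adgre1*, *Csf1r* and *Cd68*. The median log2 fold change was 0.65 (0.07 without *Dnmt3a*+/Δ replicate 2), and the macrophage marker *Adgre1* had one of 1.00. Of the 4 mesothelial genes, *Wt1* was at 0 in all tumors and *Msln* alone was tested (1.15). The part of these cells in the *Pdpn* and *Lyve1* values was not tested.

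The profiles nearest to the other genes were measured in the same way. *Tek* was closest to *Il1rl1* (0.19), *Cp* (0.40) and *Ogdhl* (0.41), *Tie1* to *Gramd1a* (0.17), *Nav1* (0.20) and *Bcl2a1a* (0.20), and *Angpt2* to *Fgf7*, *Meox1* and *Gm38300* (0.17 each). *Lyve1* was closest to *Rassf9* (0.16), *Bbof1* (0.24) and *Spns3* (0.30), and *Angpt1* to *Car5b* (0.16), *Maf* (0.23) and *Hebp1* (0.24). Of these 15, only *Car5b* and *Maf* were again among the 3 closest without *Dnmt3a*+/Δ replicate 2. The median distance of *Tie1* was 0.59 to the pan-endothelial list, 0.57 to Wnt target genes and 0.96 to all genes tested, and for *Angpt2* these were 0.59, 0.60 and 0.76. *Lyve1* had a median distance of 1.61 to the pan-endothelial list and of 0.81 to the lymphatic list, which was no nearer than its 0.80 to all genes tested.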

How the data were processed

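Polyadenylated RNA of 7 whole colon tumors, 1 per mouse, was sequenced from directional libraries. Reads were trimmed by the authors, mapped to mouse build 38 with STAR and turned into estimated counts per gene with RSEM. The strand setting of that step is not given in the sources used here. The deposited values are these estimated counts, as whole numbers without normalization, and the table has no column of another sample. Genes that had no symbol took 0.104% of all counts.

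The groups' counts were tested in R 4.3.3 with edgeR 4.0.16 (TMM, filterByExpr, quasi-likelihood, Benjamini-Hochberg over all tested genes, no covariate). Log2 CPM used a prior count of 2. Permutation tests enumerated the 35 splits of the tumors. Symbols, exon lengths and positions came from GENCODE M21 on GRCm38, and promoter windows from RefSeq, which gave windows for 4 of the 7 genes. The steps were tested on simulated data. The precision of a single low value is set by its counts.

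The genes and lists were chosen with earlier results of these data known. Named were the 7 genes, the 3 closest profiles of each, up to 3 genes per list by lowest unadjusted p under 0.05, and the leading marker of each list. Alternatives were DESeq2 1.42.0, other scalings, filters, prior counts and dispersions, the experiment as covariate, a replicate block, BMT18 alone and each tumor left out. DESeq2 with a tumor left out, the interaction with experiment and the distances to lists were chosen after seeing the data.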

Additional observations from a re-analysis of the deposited data

Results flagged for a closer look

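Among the 4 tumors with *Dnmt3a*+/Δ BM, 1 tumor stood far from the other 3 in 4 of 30 gene and group values examined, and in 3 of the 4 it was replicate 2. A rate of 1 in 20 gives about 1.5. That rate holds for normally distributed values, whereas CPM on a linear scale were used, so the 1.5 is only a rough guide. *Tek* was at 12.2 CPM in that tumor, with the other 3 at 0.853 to 1.43 CPM. *Angpt4* was at 3.32 CPM in it, against at most 0.324 CPM in the other 3. *Pdgfrb*, a receptor of pericytes and fibroblasts, was at 23.7 CPM in it, against 2.60 to 4.02 CPM. *Svep1* was at 9.71 CPM in replicate 3, with the other 3 at 4.84 to 5.36 CPM. These genes come from the same tumors and are not independent.

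*Pdpn* went in opposite directions in the transplantation experiments: the difference in mean log2 CPM was 1.12 in BMT18 and -0.31 in BMT8, where the group with *Dnmt3a*+/+ BM has 1 tumor. In edgeR's interaction test the difference between the experiments was -1.22 (standard error 0.87, unadjusted p = 0.211, adjusted p = 1).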

How the results depend on the processing

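edgeR called 0 of the 7 genes in each of its alternatives, and DESeq2 called 1, *Prox1*. With 1 tumor left out, DESeq2 called 1 to 2, and 2 only without *Dnmt3a*+/Δ replicate 1, when *Tek* was added. At an unadjusted p under 0.05, 3 genes passed in the analysis as reported, 1 with the replicate block, 1 in BMT18 alone, 1 with DESeq2 without *Dnmt3a*+/+ replicate 2, and 1 to 4 with edgeR and each tumor left out. In these edgeR fits with 1 gene left, that gene was *Prox1*. The log2 fold change of *Angpt1* changed sign, from -0.28 to 0.10 with the replicate block, to 0.51 without *Dnmt3a*+/+ replicate 1 (-0.71 to 0.51 over the tumors left out) and to 0.53 with DESeq2 without that tumor; the cause was not tested. The fitted log2 fold changes of the other 6 genes kept their direction in all alternatives, *Lyve1* in BMT18 alone (0.21) included, although its difference in mean log2 CPM there was -0.21. *Prox1* stayed between 1.74 and 2.27 and *Tek* between 0.92 and 3.59. The replicate numbers do not pair the tumors: deviations from the group means correlated at 0.568, 0.0711 and -0.0377 across genes for replicates 1, 2 and 3, and not every tumor matched its own number best. *Angpt1* and *Tek*, with as few as 11 and 14 counts in a tumor, were the least precise of the 7 genes.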

Other observations

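Angiopoietin-like genes, whose products do not bind Tek, were measured beside the ligands. All 5 tested were higher with *Dnmt3a*+/Δ BM, none at an unadjusted p under 0.05, and the median was 0.40 on the log2 scale. Leaving out *Dnmt3a*+/Δ replicate 3 gave 0.06, and leaving out *Dnmt3a*+/+ replicate 1 gave 0.78. *Angptl1* was at most at 0.487 CPM. *Angptl2*, named after its values were seen, was the most abundant, at 4.92, 17.1 and 23.3 CPM with *Dnmt3a*+/+ BM and at 10.1, 33.4, 25.5 and 40.3 CPM with *Dnmt3a*+/Δ BM, and the groups overlapped.

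Mural cells, the pericytes and smooth muscle that make Angpt1 in many tissues, were followed through 10 genes, of which 9 were tested. Of these, 8 were higher with *Dnmt3a*+/Δ BM, none at an unadjusted p under 0.05, and the median on the log2 scale was 0.34. The list summed to 466, 419 and 30.5 CPM with *Dnmt3a*+/+ BM and to 386, 224, 626 and 178 CPM with *Dnmt3a*+/Δ BM. Most of each sum came from *Acta2*, *Myh11* and *Des*, so the sum mainly follows these genes. *Dnmt3a*+/+ replicate 3 had the lowest sum and was the lowest tumor for each of them. It was also the lowest for *Rgs5*, *Notch3*, *Kcnj8* and *Abcc9*, but not for *Pdgfrb* or *Cspg4*. *Pdgfrb*, *Rgs5*, *Kcnj8* and *Abcc9* were highest in *Dnmt3a*+/Δ replicate 2. The amount of mural cells was not tested.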
